A study of Arabidopsis thaliana with 4 samples.

Results

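The comparison described here is that of an Arabidopsis thaliana line overexpressing full-length VuDREB2A with wild type Col-0. It was chosen by sample title and comprises 2 of the 4 arrays of the series, whose other 2 arrays compared a line carrying a truncated form of the same factor with wild type. Both transgenes were under the 35S promoter, a viral promoter that is active in most plant tissues, and both lines were in the Col-0 background. Plants of all groups were grown without any treatment for 21 days on 1/2 MS agar with 1% sucrose, on vertical plates, at 25 °C with 12 h of light per day, and whole plants were harvested. Labelled cRNA was made from 200 ng of total RNA, and on each Agilent 2-colour array a line was hybridised together with wild type. In replicate 1 the full-length line carried Cy3, and in replicate 2 it carried Cy5. As far as the labels state, 1 line was studied per construct. The replicates are called biological, but nothing says from how many plants or plates they came, and the design text counts 2 wild type replicates, so that both lines may have been compared with the same wild type RNA.

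DREB2 proteins are transcription factors of the AP2/ERF class that bind the dehydration-responsive element (DRE) in the promoters of drought and heat genes. In Arabidopsis, DREB2A protein is held low by ubiquitin-mediated turnover in unstressed plants, and forms that escape this turnover are known to switch on late embryogenesis abundant (LEA) protein genes and heat shock genes. VuDREB2A is the cowpea member of this class. The array holds no probe annotated to the cowpea gene, and the level of the transgene is therefore not given.

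Values below are log2 ratios of line over wild type. A pair of values gives the arrays of replicates 1 and 2 in that order, a single value is their mean, and errors are SD (n = 2). A feature was called when its adjusted p in limma, a linear model fitted across all features, was under 0.05 after Benjamini-Hochberg adjustment. "Rose" and "fell" are used only of called features. With 2 arrays of opposite dye orientation, these p-values measure the spread between the arrays, dye effects included, and the number of arrays limits the precision. Between 65.6% and 72.5% of probes exceeded background clearly, depending on array and channel, and 0 gene spots were saturated. Genes are named as in the RefSeq table, and by locus where it gives no symbol. Gene lists and families were chosen with earlier results of these data known. Their shares therefore describe the lists and are no independent test of these groups. Where no share of all features stands beside a count, it was 9.41% higher and 6.14% lower.

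Of 22438 features tested, 2111 were higher in the full-length line (9.41%) and 1378 lower (6.14%), together 15.5%. Most changes were small. A called change reached at least 1.5-fold for 501 higher and 216 lower features, at least 2-fold for 108 and 23, at least 3-fold for 22 and 1, and at least 4-fold for 7 and 0. At least 2-fold on each array separately, a count that uses no test, was found for 88 higher and 14 lower features, 0.455% of those tested. Across features, which are not independent replicates, the arrays correlated with r = 0.72 (Spearman's rho 0.60), 70.2% of features had the same sign on both, and the median SD was 0.09. The counts depended on both arrays, since 1786 features were called without replicate 1 and 1843 without replicate 2. A fit without 1 of these arrays, here and below, keeps the full-length line in 1 dye orientation. Dye effects and the line cannot be told apart in such a fit. With the arrays centred on their median in place of loess normalisation, only 8 features were called, all 8 higher (100% of calls, against 60.5%). These were SAG13, AT1G02470, TH8, CORI3, AT4G12490, PDF1.2c, BAM5 and GPT2. With the 20 to 50 outlier-marked spots per array kept, 1018 features were called.

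**Figure D1:**
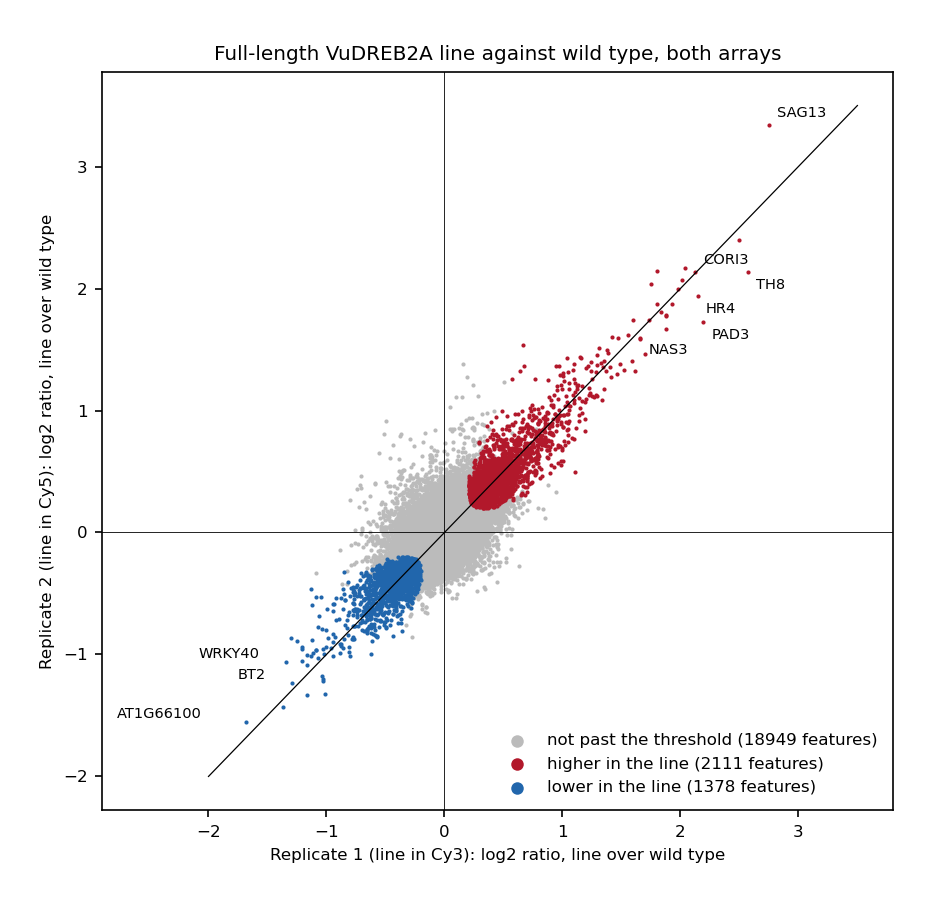
Log2 ratio of the full-length line over wild type on the array of replicate 1 (x axis) against that of replicate 2 (y axis), 1 point per feature, coloured by its call; the diagonal marks equal values. The 2111 higher features reach further from 0 than the 1378 lower ones, and SAG13 lies farthest out at 2.75 and 3.34.

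The largest rise was that of SAG13, a short-chain dehydrogenase gene used as a marker of senescing leaves, with log2 ratios of 2.75 and 3.34 (3.04 ± 0.42, 8.24-fold; limma, adjusted p = 0.003). For this gene the wild type channel exceeded background clearly on 1 of 2 arrays, as it did for BAM5 below. AT1G02470 followed with 2.50 and 2.40, and TH8, a gene for an h-type thioredoxin, with 2.57 and 2.14. CORI3, a cystine lyase gene induced by the bacterial toxin coronatine, had 2.12 and 2.13. These genes had values above 2 on both arrays, as did AT4G12490 (2.04 and 2.17) and AT1G27020 (2.01 and 2.07).

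Below them came several genes of defence and of carbon and metal handling. LOX2, a chloroplast lipoxygenase of jasmonate synthesis, had 1.93 and 1.87, although its other probes gave means from 0.36 to 1.26. BAM5, a β-amylase gene, had 1.75 and 2.04, with 1.21 from another probe. ADH1, the alcohol dehydrogenase of hypoxic tissue, had 1.84 and 1.81, with 0.96 at its lowest other probe. GPT2, a plastid glucose-6-phosphate transporter gene that is induced by sugar, had 1.88 and 1.67, with 1.16 from another probe. NAS3, which encodes a nicotianamine synthase, had 1.66 and 1.60. SAG29, a SWEET sugar transporter gene also known from senescing leaves, had 1.59 and 1.41, and CAX3, a vacuolar cation exchanger, 1.62 and 1.32. AT1G09500 had 1.66 and 1.59 (3.08-fold; limma, adjusted p = 0.00138), with 1.46 from another probe. It was not well above background in wild type on either array, so the size of its rise is uncertain. Other probes gave 0.22 for AT5G22460 (mean 1.58) and 0.38 for AT5G39520 (mean 1.43). The other members of the 30 largest rises lay between 1.43 and 2.04.

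The falls were smaller. AT1G66100 fell most (-1.68 and -1.55; limma, adjusted p = 0.00149). BT2, a BTB and TAZ domain gene that responds to nitrogen and sugar supply, fell by 1.26 (-1.29 and -1.23), and the defence transcription factor gene WRKY40 by 1.20 (-1.34 and -1.06). THI2.2, a thionin gene, had -1.30 and -0.87. FUM2, the cytosolic fumarase, had -1.09 and -0.97, with -0.50 at its weakest other probe. IGMT1, a methyltransferase of indole glucosinolates, had a mean of -1.01, PUP18, a purine permease gene, -0.88 and -0.99, and SOB5, an Arabidopsis gene linked to cytokinin, -1.03 and -1.20. The 30 largest falls ended at -0.91 for MEE14. With outlier-marked spots kept, SAG13, PAD3, BAM5, AT1G09500, AT3G28540, AT4G19430, AT1G10585 and AT5G39520 of the rises and SOB5, AT5G62280, AT3G62950, AT5G04120, AT5G35940 and PUP18 of the falls were not called. The plot of the largest changes shows both arrays of each gene.

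**Figure D2:**
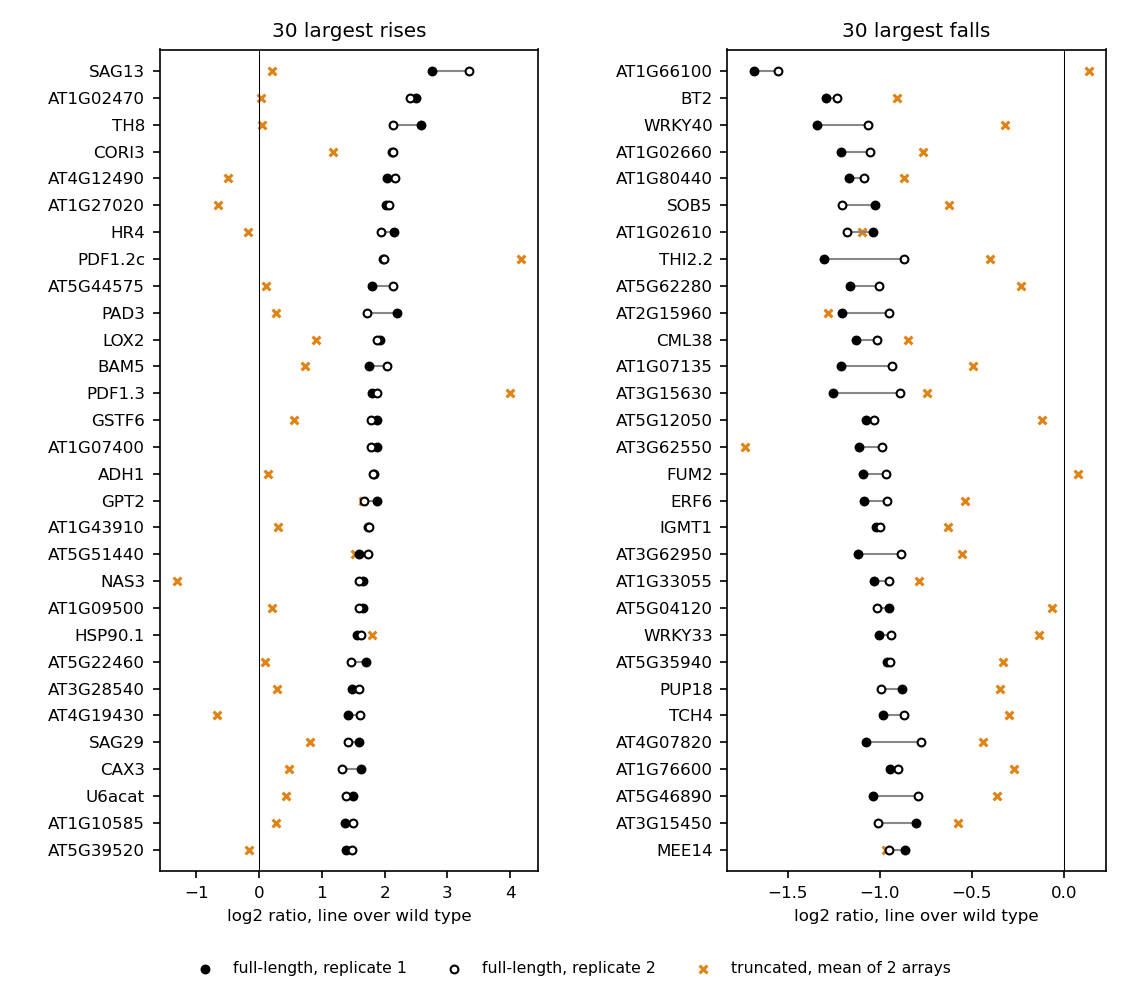
The 30 largest rises (left) and 30 largest falls (right) among called genes with a locus and 1 sign on both arrays; filled and open circles are the arrays of replicates 1 and 2 and crosses the mean of the truncated line, all as log2 ratio over wild type. Circles of a gene lie close together, while 4 of the crosses on the left, among them NAS3 at -1.31 and AT1G27020 at -0.66, lie below -0.4.

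Because whole plants were ground, a change can come from fewer cells of a type or from less RNA per cell, which cannot be told apart. Of 12 root markers, 5 were lower and 1 higher (41.7% and 8.33%, against 6.14% and 9.41% of all features). Their medians on the arrays were -0.45 and -0.25. The lower ones included CASP1 (-0.49 and -0.41) and CASP2 (-0.48 and -0.27), which build the Casparian strip of the endodermis, and the aquaporins PIP2;4 (-0.50 and -0.47) and TIP2;3 (-0.94 and -0.59). AT3G49960 was the higher one (0.33 and 0.52). PYK10 (0.19 and 0.21) and SHV2 (-0.25 and -0.17), the latter needed for root hair growth, did not pass the test. The count of lower root markers was 2 without replicate 1, where CASP1 and CASP2 were not called, and 7 without replicate 2, where AT3G49960 was not. Of 6 shoot markers 2 were lower, at medians of -0.64 and 0.14, a difference between arrays taken up below. None of 4 epidermis markers passed (limma, lowest adjusted p = 0.105; values -0.21 to -0.05). Of 2 flower markers tested, SEP3, a floral MADS-box gene, was higher (0.47 and 0.54) and PI, a petal and stamen gene, was at 0.13 and 0.06. The seed storage protein gene CRA1 was at 0.16 and 0.04. Of 3 senescence markers, SAG13 and the chlorophyll breakdown gene NYE1 (0.35 and 0.36; not called when either array was left out) were higher, and NAC6 was not called (-0.08 and -0.14).

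Of 19 native DREB genes and regulators tested, 1 was higher and 1 lower (5.26% each, against 9.41% and 6.14% of all features). The filter on dim probes removed 9 of the 28 listed, among them 5 of 8 DREB2 genes. DREB2A had 0.53 and 0.24, which did not pass the threshold (0.38 ± 0.21; limma, adjusted p = 0.0535), and passed without replicate 2, without background correction and with the full-length arrays alone. The lower gene was AT1G75490 (-0.60 and -0.52), with -0.08 from another probe. CBF2, a cold-induced relative that binds the same element, was at 0.06 and 0.14. Of 10 regulators of these factors, RCD1, which encodes a DREB2A-binding protein, rose (0.44 and 0.36; not called without replicate 1), with other probes from 0.00 to 0.75. DRIP1 (-0.10 and -0.25) and DRIP2 (mean -0.05), ubiquitin ligases that target DREB2A, did not pass. GRF7, a repressor of DREB2A, was at 0.11 and -0.06.

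Genes listed as responding through the DRE were mixed. Of 19 tested, 5 rose (26.3%, against 9.41% of all features higher), 1 fell and 13 did not pass. The median of the 19 was 0.17 against 0.01 over all features. The largest rises were those of ELIP1 (1.23 and 1.13) and ELIP2 (0.80 and 0.76), light-stress proteins of the thylakoid. LEA14 (0.41 and 0.36) and the dehydrin gene ERD10 (0.35 and 0.30) rose, as did GolS3, a galactinol synthase gene (0.29 and 0.28). COR413-PM1, a cold-regulated membrane protein gene, fell (-0.35 and -0.29). Textbook DRE genes of drought did not pass: LTI78 was at 0.11 and 0.33, KIN1 at 0.23 and 0.18, and COR15A at -0.17 and -0.17. LTI65, also on the list, was at 0.06 and -0.06 and did not pass. Without replicate 1 the count of rises was 3 without replicate 2 it was 2, and the smaller changes, those of LEA14, ERD10, GolS3 and COR413-PM1, passed in neither fit.

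Of 16 small heat shock protein genes, which encode chaperones that hold unfolded proteins, 12 rose and 0 fell (75%, against 9.41% of all features higher), with medians of 0.72 and 0.73 on the arrays. With outlier-marked spots kept, 6 were called. AT1G07400 had the largest change (1.88 and 1.78), followed by AT5G51440 (1.60 and 1.74) and AT1G53540 (1.06 and 1.23). HSP18.2 was at 0.96 and 0.93, HSP17.6II at 1.05 and 0.80, and HSP17.6A at 0.77 and 0.77. HSP23.6-MITO, a mitochondrial form, was not well above background in wild type and was at least 1.63-fold higher. HSP21 was not well above background in either channel. AT4G21870 (0.00 and -0.09), AT5G47600 (-0.16 and -0.16) and AT1G52560 (0.03 and 0.13) did not pass. Members of this family are similar in sequence and their probes may share signal.

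Of 23 large chaperone and cochaperone genes of the cytosol, 15 rose and 0 fell (65.2%, against 9.41% of all features higher). Their median was 0.54. HSP90.1, the heat-inducible HSP90, had 1.56 and 1.62, and HSP70 1.19 and 0.93. HSP101, a disaggregase needed for heat tolerance, was at 0.80 and 0.84. Among cochaperones, AT5G48570 had 1.40 and 1.36, AT2G20560 1.13 and 1.21, Hop3, which links HSP70 to HSP90, 0.94 and 0.83, and the heat-response coactivator MBF1C 0.90 and 0.83. Hsp70b, in contrast, was at -0.06 and 0.17 and was not called.

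Of 16 genes for chaperones of the endoplasmic reticulum, 8 rose and 0 fell (50%, against 9.41% of all features higher). Their median was 0.27. BIP1 (1.00 and 0.69) and BIP2 (0.70 and 0.73), the HSP70s of this compartment, and the lectin chaperone CNX1 (0.84 and 0.83) led, with 0.19 and 0.38 from another probe of BIP2 and of CNX1. The transcription factor genes BZIP60 (-0.06 and 0.08) and BZIP28 (-0.02 and 0.08), which drive the unfolded protein response, were not called. The count was 3 without replicate 1, 5 without replicate 2 and 4 with outlier-marked spots kept.

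Heat shock factor genes, which encode the activators and repressors of these chaperone genes, changed in 3 of 17 cases (17.6% higher, with 15.5% of all features called in either direction). HSFA2, an activator induced by heat, had 1.10 and 0.77 (0.93), HSF4, a class B factor, 0.79 and 0.83 (0.81), and HSFC1 0.25 and 0.24. HSFC1 passed in neither fit that left out an array. HSFA3, which in Arabidopsis is a direct target of DREB2A, was at 0.02 and -0.19 (adjusted p = 0.539 in limma), and the constitutive factor HSF1 at -0.04 and -0.06.

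**Figure D3:**
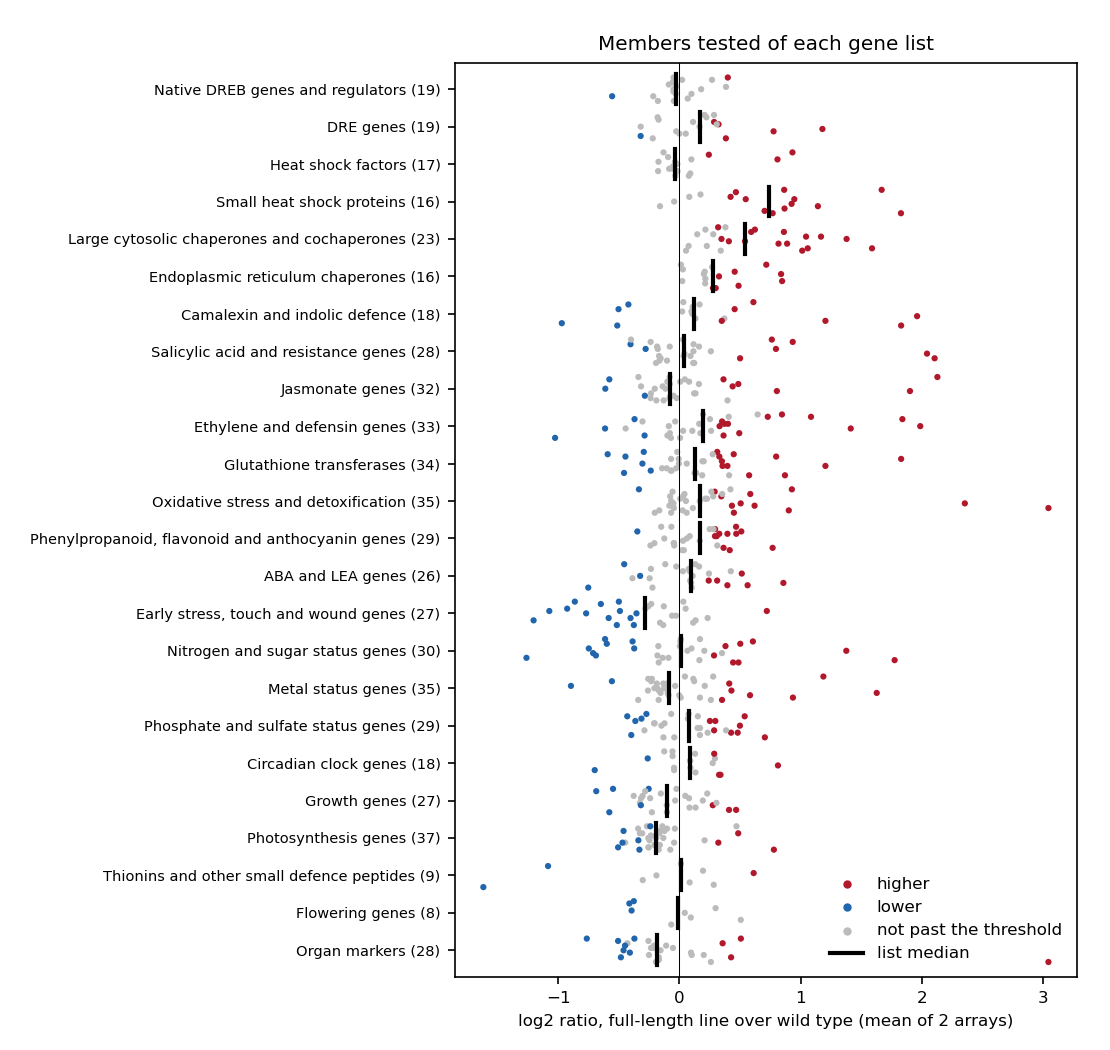
Mean log2 ratio of the full-length line over wild type for each tested member of the gene lists (number tested in parentheses), coloured by call, with the list median as a bar. Small heat shock proteins (median 0.74) and large chaperones (0.54) lie furthest right, and early stress, touch and wound genes (-0.28) furthest left.

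Camalexin, the main indole phytoalexin of Arabidopsis, is made from tryptophan. Of 11 enzyme genes of this and related indole routes 6 rose, 1 fell and 4 were not called. These shares of 54.5% higher and 9.09% lower stand beside 9.41% and 6.14% of all features. PAD3, the last enzyme, had 2.19 and 1.73 (1.96 ± 0.33, 3.89-fold; limma, adjusted p = 0.00318). GSTF6, which couples glutathione to the intermediate, had 1.88 and 1.78, and GSTU4 1.22 and 1.18. CYP79B2, the first committed enzyme, was at 0.67 and 0.55, and the tryptophan synthase genes TSA1 (0.42 and 0.49) and TSB1 (0.41 and 0.29) were also higher. The enzyme gene that fell was CYP81F2 (-0.28 and -0.57), which modifies indole glucosinolates. Of 5 regulator genes 3 fell and 0 rose: WRKY33, a known activator of PAD3, at -1.002 and -0.938, the kinase gene MPK3 at -0.47 and -0.56, and MYB51, a regulator of indole glucosinolates, at -0.52 and -0.49. TSB1 was not called when either array was left out, nor CYP81F2 without replicate 2.

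Of 12 signalling genes of the salicylic acid pathway none was higher and 1 was lower (8.33%, against 6.14% of all features). The lower gene was NPR3, a salicylic acid receptor (-0.24 and -0.32), which did not pass when either array was left out. The receptor and coactivator NPR1 (-0.14 and -0.20), PAD4 (-0.20 and -0.19) and the synthesis gene EDS16 (0.12 and -0.06) were not called. Among 10 target and resistance genes, HR4, of the RPW8 family of broad mildew resistance, had 2.15 and 1.94, while its relative HR3 fell (-0.30 and -0.51; not called without replicate 2). A group of 4 genes with consecutive locus numbers rose: AT4G12490 (2.04 and 2.17), AT4G12500 (1.00 and 0.86), EARLI1 (0.84 and 0.75) and AZI1 (0.70 and 0.83), the last a lipid transfer protein-like gene known for priming of defence. PR5, a pathogenesis-related protein gene, was at -0.16 and -0.20.

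Jasmonate-responsive genes split. CORI3 and LOX2, given above, rose, with TAT3, a tyrosine aminotransferase gene (1.11 and 0.50, with 0.18 from another probe; not called without replicate 1), ESM1, which steers glucosinolate breakdown (0.47 and 0.40), ACX1, a peroxisomal oxidase of jasmonate synthesis (0.54 and 0.43) and AOC1 (0.33 and 0.40). The vegetative storage protein genes VSP1 (-0.68 and -0.54) and VSP2 (-0.61 and -0.55), classical markers of wounding, fell. Of 10 JAZ repressor genes, which respond early to the hormone, JAZ3 fell (-0.30 and -0.27) and none rose. MYC2, the central activator, was at -0.14 and -0.13. AOC1 and JAZ3 were not called when either array was left out, nor ESM1 without replicate 1.

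All 7 tested target genes of the ethylene and jasmonate branch rose. The defensin genes PDF1.2c (1.98 and 2.00) and PDF1.3 (1.80 and 1.88) led, followed by PDF1.2b (1.31 and 1.52), the chitin-binding protein gene PR4 (0.98 and 0.71), PDF1.2 (0.57 and 0.89), the basic chitinase gene HCHIB (0.30 and 0.50, with -0.10 from another probe) and PDF1.4 (0.32 and 0.42). The defensin genes are near-identical, so their probes may not tell them apart. The ERF factor EBP had 1.15 and 1.02, while ERF6 (-1.09 and -0.96, with -0.42 from another probe), ERF5 (-0.31 and -0.43) and ERF2 (-0.23 and -0.34) fell. ORA59, a known activator of these defensin genes, was not called (0.07 and 0.32). ACS6, an enzyme of ethylene synthesis that stress induces, fell (-0.82 and -0.41), whereas ACO1 (0.35 and 0.32), which catalyses the last step, rose. The ethylene receptors ETR2 (0.31 and 0.42) and ERS1 (0.30 and 0.40) rose. Over the list of 33 genes, 12 rose and 4 fell, with 10 and 1 without replicate 1 and 7 and 3 without replicate 2. ACS6 was not called without replicate 1, HCHIB and PDF1.4 not without replicate 2, and ERF5, ERF2, ETR2 and ERS1 in neither fit.

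Both thionins tested fell, namely AT1G66100 and THI2.2, whose values are given above. Glutathione transferases, which attach glutathione to toxic compounds, changed both ways. Of 10 phi-class genes 6 rose and 2 fell (60% and 20%), and of 24 tau-class genes 5 rose and 4 fell (20.8% and 16.7%). Over all features 9.41% were higher and 6.14% lower. GSTF7 (1.02 and 0.72) and GSTF2 (0.85 and 0.74) rose beside GSTF6, and GSTU12 (0.65 and 0.50) beside GSTU4, while GSTU26 (-0.65 and -0.54) and GSTF14 (-0.57 and -0.34) fell. The rises over the family of 34 numbered 11, and 7 and 6 without replicates 1 and 2. The falls numbered 6, and 2 with either array left out, GSTF14 not being called without replicate 1.

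Among genes of oxidative stress, the thioredoxin genes TRX3 (0.53 and 0.48) and TH7 (0.52 and 0.65) rose beside TH8, and 6 of 9 thioredoxin and glutaredoxin genes were not called. The mitochondrial stress genes AT2G21640 (0.86 and 0.99), NDB2, an alternative NADH dehydrogenase (0.55 and 0.69), and BCS1 (0.46 and 0.43, with -0.08 from another probe) rose, and AOX1A, the alternative oxidase, did not pass (0.50 and 0.21). ABCC3, a vacuolar glutathione-conjugate pump, was at 0.91 and 0.89. The list counted 11 rises and 1 fall in 35, the fall being that of the iron superoxide dismutase gene FSD1 (-0.30 and -0.36). FSD1 and BCS1 were not called when either array was left out, and AOX1A was called without replicate 2.

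Early stress, touch and wound genes respond within minutes to handling. Of 27 tested, 13 fell (48.1%, against 6.14% of all features), 1 rose and 13 did not pass, with medians of -0.30 and -0.33 on the arrays. CML38 (-1.13 and -1.02), the calmodulin-like TCH3 (-0.77 and -0.77) and TCH2 (-0.63 and -0.40), and TCH4, a xyloglucan-modifying enzyme gene (-0.98 and -0.87), were among the falls, as were the zinc finger genes SZF1 (-0.85 and -0.88) and ZF1 (-0.53 and -0.47) and the factor genes WRKY22 (-0.68 and -0.61), NAC062 (-0.71 and -0.46) and STZ (-0.30 and -0.45). BT4 was the gene that rose (0.68 and 0.77). Fewer genes were lower without an array, 9 without replicate 1 (TCH2 and NAC062 among those not called) and 11 without replicate 2 (STZ not called).

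Of 12 nitrogen genes 5 rose, 1 fell and 6 were not called (41.7% higher and 8.33% lower, against 9.41% and 6.14% of all features). Both nitrate reductase genes, NIA1 (0.50 and 0.38) and NIA2 (0.59 and 0.62), the nitrite reductase gene NIR1 (0.31 and 0.45), the transceptor gene NRT1.1 (0.28 and 0.29) and the glutamine synthetase gene GSR2 (0.58 and 0.42, with -0.12 and 0.08 from other probes) made up the rises, and BT2 was the fall. Without replicate 1 the rises were 2, with NIA1, NRT1.1 and GSR2 not called. In the truncated line NIA1 was at -0.76, NIA2 at -0.45 and NIR1 at -0.34, and the lines differed for each of the 3 (limma contrast, adjusted p = 0.0104, 0.0104 and 0.0409).

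Of 13 genes repressed by sugar, 7 fell and 1 rose (53.8% and 7.69%, against 6.14% lower and 9.41% higher of all features). ASN1, the dark-induced asparagine synthetase (-0.70 and -0.80), TPS8 (-0.58 and -0.85) and TPS11 (-0.61 and -0.76) of the trehalose phosphate synthase family, DIN10, a raffinose synthase-like gene (-0.56 and -0.67), and SEN1 (-0.54 and -0.65) fell. DIN2, a β-glucosidase gene, was the exception (1.29 and 1.46). Of 5 sugar-induced genes, GPT2 and the starch enzyme gene APL3 (0.54 and 0.44) rose and GBSS1 was at -0.13 and -0.15.

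Metal genes divided by role. Of 7 genes of nicotianamine synthesis and transport, which move iron, zinc and copper between cells, 5 rose and 0 fell: NAS3, given above, NAS1 (0.99 and 0.89), NAS2 (0.32 and 0.38), and the transporter genes YSL1 (1.23 and 1.14) and YSL3 (0.42 and 0.44). Iron uptake genes of the root did not follow. IRT1, the main iron transporter, was at -0.46 and 0.15, FRO2, the ferric reductase, at 0.17 and 0.35, and their activator FRU fell (-0.68 and -0.43; not called without replicate 1). OPT3 (0.37 and 0.45) and FRO3 (0.48 and 0.69) were the higher genes of the iron group, and 12 of its 15 members were not called. Without replicate 2 the iron group counted 0 rises and 4 falls, and the nicotianamine group 3 rises, with IRT1 among the falls and OPT3, FRO3, NAS2 and YSL3 not called. NAS2 was not called without replicate 1 either. HMA2, a zinc exporter gene, fell (-0.81 and -0.98). Of the 12 root markers given above, which include IRT1 and FRO2, 5 were lower and 1 higher. The part of root content in the values of root genes was not tested.

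Smaller shifts were found in nutrient and secondary metabolism. Of 13 phosphate genes, PAP17, an acid phosphatase gene (0.79 and 0.62), and the transporter gene PHT1;4 (0.53 and 0.47) rose, and the membrane lipid genes SQD2 (-0.44 and -0.35), MGD2 (-0.41 and -0.32) and SRG3 (-0.32 and -0.31) fell. None of those falls passed without replicate 1, and SQD2 alone of the 3 passed without replicate 2. Of 8 glucosinolate genes 5 rose, MYB28, the regulator of the methionine-derived forms, among them (0.61 and 0.46), and without replicate 1 the count was 2. Of 7 early flavonoid genes 5 rose, TT7, a flavonoid hydroxylase, most (0.90 and 0.64, other probes from 0.05 to 0.53), with 2 rises without replicate 1. PAP1, the activator of anthocyanin synthesis, was at -0.10 and 0.00.

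Of 26 abscisic acid genes 6 rose and 3 fell (23.1% and 11.5%, against 9.41% and 6.14% of all features). RD20, a caleosin gene (0.91 and 0.80), the bZIP activator gene ABF3 (0.58 and 0.54) and AAO3, the last enzyme of synthesis (0.48 and 0.55, with 0.08 from another probe), rose, and CYP707A3, which breaks the hormone down, fell (-0.74 and -0.77; its other probes ranged from -0.80 to -0.03). P5CS1, the proline synthesis enzyme gene, fell (-0.31 and -0.34; not called when either array was left out). These counts were 3 and 1 without replicate 1 and 4 and 3 without replicate 2.

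Of 18 clock genes 4 rose and 2 fell (22.2% and 11.1%, against 9.41% and 6.14% of all features). AT3G54500, of the list of morning genes (0.80 and 0.82), and the evening gene ELF4 (-0.76 and -0.63) were the changes that passed whichever array was left out. Auxin and brassinosteroid genes counted 4 falls and 1 rise in 10, with IAA19, an auxin-response repressor of hypocotyl growth, at -0.66 and -0.72 and BAS1, which inactivates brassinosteroids, at -0.65 and -0.51. EXPA8, a cell wall expansin gene, fell (-0.56 and -0.53). Of 8 flowering genes, the repressor gene FLC (-0.45 and -0.38) and the promoters AGL20 (-0.49 and -0.30) and SPL3 (-0.32 and -0.43) fell. FT, the mobile flowering signal, was at 0.06 and 0.54. FLC and AGL20 were not called without replicate 1, SPL3 not without replicate 2, and the auxin and brassinosteroid falls numbered 2 with either array left out.

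Photosynthesis genes gave different answers on the arrays. The median over 37 genes was -0.43 on replicate 1 and 0.00 on replicate 2, and 3 were called higher and 6 lower (15 lower with the mean of all probes of a locus). RBCS1A, a small subunit of Rubisco, had -0.71 and 0.36, CAB1 of the light-harvesting antenna -0.66 and 0.19, and PSBO1 of photosystem II -0.71 and 0.46. These genes had opposite signs on the arrays, which differ in dye orientation. Over the brightest 1% of all features (225) the medians were -0.02 and 0.15, a gap larger than in any of the 5 dimmer classes, and the part of dye effects in these values was not tested. Genes with 1 sign on both arrays included the photosystem I subunit genes PSAG (-0.46 and -0.46), PSAH2 (-0.60 and -0.41) and PSAL (-0.55 and -0.39). PSAG remained called whichever array was left out. The list counted 1 fall without replicate 1 and 6 without replicate 2.

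**Figure D4:**
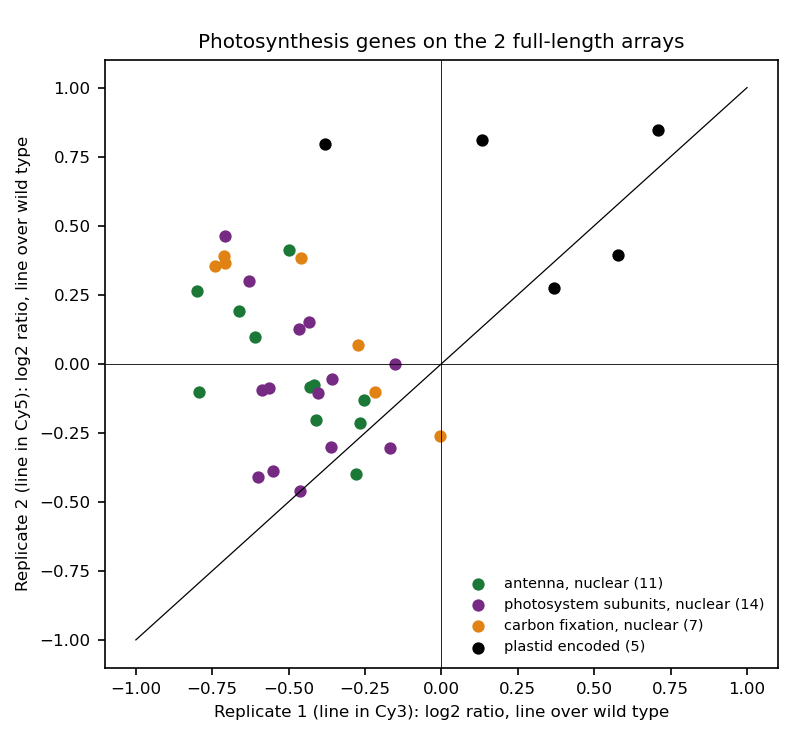
Photosynthesis genes on the array of replicate 1 (x axis) and replicate 2 (y axis) as log2 ratio of the full-length line over wild type, coloured by role; the diagonal marks equal values. Nuclear genes lie at or to the left of 0 on the x axis and on both sides of 0 on the y axis, while 4 of 5 plastid-encoded genes are above 0 on both.

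Of 66 plastid genes 32 were higher and 0 lower (48.5%), with a median of 0.42, and of 53 mitochondrial genes 26 were higher and 0 lower (49.1%, where 9.41% of all features were higher), with a median of 0.34. The medians on the arrays were 0.34 and 0.39 for plastid and 0.34 and 0.32 for mitochondrial genes. Among those with larger values were ATMG00210 (1.20 and 1.09), ATMG01390 (1.16 and 1.43), ATCG00180 (0.79 and 0.89) and ATCG00170 (0.82 and 0.77). Of 7 small nuclear RNAs 5 were higher, led by U6acat (1.49 and 1.38) and U12 (0.85 and 0.83) of the minor spliceosome, as were both small nucleolar RNAs, U3D (1.12 and 1.20) and SNOR37-2 (0.79 and 1.01). Of 3 ribosomal RNAs 1 was called, and their values differed between arrays, as for AT2G01010 (0.16 and 1.38; called without replicate 1). In the truncated line the plastid median was 0.36 and the mitochondrial one 0.26, while that of small nuclear RNAs was 0.06. With median centring in place of loess, under which none of these genes was called, the plastid median was 0.06 and the mitochondrial one 0.30.

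Gene families defined by name gave further counts, to be set against 9.41% of all features higher and 6.14% lower. Genes named from them, like those of the transcript classes and the list members outside the naming rule, were chosen after their values were seen. Of 103 ABC transporters 26 rose (25.2%) and 1 fell, with ABCC8 at 0.90 and 0.75 and ABCG22 at 0.77 and 0.77; the rises were 9 and 14 without replicates 1 and 2. Of 165 cytochromes P450, 38 rose and 12 fell, and CYP81D1 (1.27 and 1.11) and BR6OX2, the last enzyme of brassinosteroid synthesis (0.97 and 0.95), followed PAD3. Those rises numbered 25 without replicate 1 and 24 without replicate 2. Of 31 cysteine-rich receptor kinases 11 rose and 3 fell, with ARCK1 at 1.04 and 1.43, and 7 and 6 rises without an array. WAK1, a wall-associated kinase gene, had 1.35 and 1.40.

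Among transcription factor families, NAC factors counted 10 rises and 6 falls in 73 (5 and 1 without replicate 1, 5 and 3 without replicate 2), where all features gave 9.41% higher and 6.14% lower. WRKY factors counted 10 falls and 6 rises in 58, where WRKY45 (0.97 and 1.36) and WRKY60 (1.01 and 1.24) rose and WRKY40 and WRKY33 fell. AP2/ERF factors counted 8 falls and 3 rises in 44, and RAV2 (-0.93 and -0.59) was among the falls. MYB factors counted 11 falls and 5 rises in 84, with MYB77 at -0.63 and -0.83. Of 35 bZIP factors 5 fell and 1 rose, and bZIP1, a factor of low-energy signalling, was at -0.93 and -0.85. Of 11 calmodulin-like proteins 5 fell and 0 rose. The falls were fewer without an array, at 6 and 7 falls for WRKY, 4 and 5 for AP2/ERF 4 and 7 for MYB factors and 2 and 2 for bZIP factors, leaving out replicates 1 and 2.

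Genes changed by at least 2-fold were scattered along the chromosomes. Of 118 such genes placed on the map, 4 formed 2 runs of direct neighbours, NRT1.7 with TH8 on chromosome 1 and PDF1.3 with PDF1.2b on chromosome 2. NRT1.7, a nitrate transporter gene, rose by 1.21 ± 0.13.

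The last comparison asked where the full-length and truncated lines differ. Each form appears to be represented by 1 line, and the level of the transgene is not given. Effects of the form and of the line therefore cannot be told apart. Values given for a form, here and below, are those of its line. By the limma contrast of the lines, 700 features differed (3.12%), 482 higher in the full-length line and 218 lower. This fit treats the arrays as independent. Same-numbered arrays of the lines share dye orientation, however, and their deviations correlated with r = 0.775 across features. The count and the standard errors depend on this choice, and 8799 features differed with replicate number added to the fit. Of the 700, 469 were also called in the full-length line against wild type, where 15.5% of all features were called. Both comparisons use the same full-length arrays, so this overlap is no separate support. Among features also called in the full-length line, NAS3 differed most on the upper side (1.66 and 1.60 for the full-length form, -1.31 and -1.32 for the truncated form; difference 2.94 ± 0.08 SE, limma, adjusted p = 0.00321). SAG13, AT1G27020, AT4G12490, AT1G02470, TH8, HR4 and AT4G19430 were high with the full-length form and lay between -0.67 and 0.20 with the truncated one. CYP712A1 and AT1G52820 were a different case, at -0.40 and -0.51 for the full-length form against -2.71 and -2.73 for the truncated one. Another CYP712A1 probe gave -0.09 for the full-length form, and the fall of this gene was not called without replicate 1.

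On the lower side, among genes called in the full-length line, the defensins had the largest differences: PDF1.2 was at 0.73 with the full-length form and 3.84 with the truncated form, PDF1.2b at 1.41 and 3.95, PDF1.2c at 1.99 and 4.17, and PDF1.3 at 1.84 and 3.99. AT1G66100 fell with the full-length form and was at 0.13 with the truncated one. MIPS1, a myo-inositol phosphate synthase gene, was at -0.56 and 0.78, AT5G05250 at -0.45 and 1.41, GAT1_2.1 at -0.63 and 0.61, and MBP2, a myrosinase-binding protein gene, at -0.64 and 0.54. Another MBP2 probe gave -0.21 for the full-length form. SADHU3-2, a retroelement, was at 0.47 and 1.72. The fall of AT5G05250 with the full-length form was not called without replicate 2. The lines share their spread in the fit and may share wild type RNA. With median centring 0 features passed this contrast in limma, against 425 at an unadjusted p under 0.05, and with Agilent's own processed ratios 173 passed. With replicate number, which here is the dye orientation, added to the fit, 8799 passed.

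Some of the groups above differed between the lines and others were not shown to. The counts in this paragraph are to be set against 3.12% of all features that differed. Among camalexin enzyme genes 5 of 11 differed, and among salicylic acid targets 5 of 10, all with the higher value in the full-length line. Of 15 iron genes 9 differed, all lower with the full-length form, among them IRT1 (-0.16 against 2.19) and FRO2 (0.26 against 2.05). Small heat shock proteins had medians of 0.74 and 1.05, and 5 of 16 differed: HSP18.2 was higher in the full-length line (0.95 and -0.28), and HSP17.4, HSP17.6II, HSP17.6A and AT1G53540 were lower. None of the 23 large chaperone genes and none of the 16 endoplasmic reticulum genes passed the contrast, which does not show that they were equal. All counts in this paragraph come from the fit without replicate number.

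**Figure D5:**
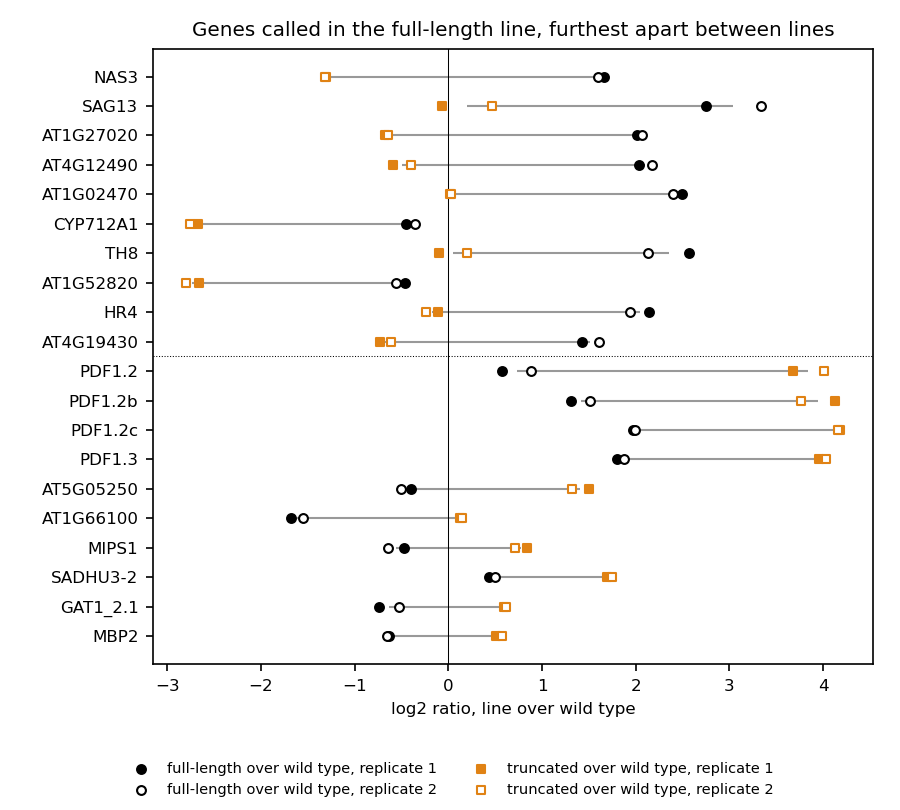
Log2 ratio over wild type on each array of the full-length line (black circles) and the truncated line (orange squares) for the 10 genes furthest above (top) and below (bottom) the truncated line among those called in the full-length line; filled and open symbols are replicates 1 and 2 and the grey bar joins the line means. Replicates of a line lie close together in comparison with the gap between lines, which is 2.94 for NAS3 and -3.11 for PDF1.2.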

How the data were processed

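Spot intensities were deposited as scanner output; per the file headers, Agilent Feature Extraction 10.7.3.1 wrote it. They also hold log10 ratios of Cy5 over Cy3 from background-subtracted, dye-normalised signals, per the file headers. A deposited table of log2 ratios matched these, turned to line over wild type, with slopes of 0.998 to 1.00 and column medians of -0.07 to 0.04. Its centring is not given in the sources used here.

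From the scanner files, outlier-marked gene spots (20 to 50 per array) were removed. Median intensities were corrected by normexp (offset 50) and normalised by loess within arrays, with control spots at weight 0. Ratios were turned by dye, spots of a probe averaged and, per locus, the probe with the highest mean intensity kept. Features entered the test when they were well above background on all 4 arrays in the wild type channel, or in a line's channel on both of its arrays. This left 22438 of 34127, of which 20337 had a locus and 20139 were in the RefSeq table, and 580 of 643 listed genes. Both lines entered 1 fit (limma 3.58.1 in R 4.3.3) with 2 residual and 3.18 prior degrees of freedom. The fit was also run on simulated ratios with known changes. Errors there were independent between arrays and held no dye effect, so that run does not bear on such effects here.

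Named by rule were the 30 largest rises and 30 largest falls, the 10 largest differences between lines each way among genes called in the full-length line, up to 6 called members per list, and all members of the lists of native DREB genes, DRE genes, heat shock factors and organ markers. Genes, lists and families were chosen with earlier results of these data known. Some list members are not reported here by name. Membership of loci without a symbol rests on textbook knowledge. A bound on a fold sets the bright channel against the lowest signal among probes well above background or the dim probe's own signal, whichever is higher, and can carry dye bias. Alternatives covered normalisation, background, outliers, the filter, probe choice, arrays left out, the replicate block and the deposited table.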

Additional observations from a re-analysis of the deposited data

Results flagged for a closer look

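The full-length and truncated lines differed by the limma contrast for 700 features in the fit without replicate number. The 10 genes with the largest positive difference on the log2 scale, among those called in the full-length line, were NAS3 (2.94), SAG13 (2.84), AT1G27020 (2.70), AT4G12490 (2.60), AT1G02470 (2.42), CYP712A1 (2.31), TH8 (2.30), AT1G52820 (2.22), HR4 (2.22) and AT4G19430 (2.19). Both replicate pairs had the same sign for each of these. The 10 with the largest negative difference were PDF1.2 (-3.11), PDF1.2b (-2.53), PDF1.2c (-2.19), PDF1.3 (-2.16), AT5G05250 (-1.86), AT1G66100 (-1.75), MIPS1 (-1.33), SADHU3-2 (-1.25), GAT1_2.1 (-1.24) and MBP2 (-1.18). The 4 defensin genes were higher than wild type in both lines, and more so in the truncated one.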

How the results depend on the processing

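The count of 3489 called features in the full-length line was 8 with median centring, 1018 with outlier-marked spots kept and 1036 without the filter on dim probes (34127 features tested). It ranged from 1786 to 1843 when 1 full-length array was left out. Each such fit leaves 1 full-length array, which is then assumed to vary like the truncated pair. That array has 1 dye orientation, so dye effects and the line cannot be told apart in it. It stayed between 3226 and 4314 with Agilent's log ratios, no background correction, the mean of probes, full-length arrays alone or the deposited table. The count of 700 differences between lines was 173 with Agilent's log ratios and with the deposited table, 0 with median centring (425 at an unadjusted p under 0.05 in limma), 367 with outlier-marked spots kept and 86 without the filter. The cause of these moves was not tested. Of 239 named genes called, 8 stayed called under median centring, 143 with outlier-marked spots kept, 164 without the filter, 181 without replicate 1 and 196 without replicate 2, and 220 or more under the other alternatives; none of them changed sign with a call. With the replicate block, which here is the dye orientation, 12768 features were called, and 8799 for the difference. Of 37 photosynthesis genes 5 were then higher and 29 lower, and DREB2A passed. Deviations of same-numbered arrays correlated with r = 0.775 over 22438 features, with only 2 pairs and no label of a shared batch. Slide as a block was not run, since all 4 arrays lie on 1 slide. Probes near background limit what can be seen, and 24 features were called with the other channel dim on both arrays.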

Other observations

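Among 26 tested microRNA gene transcripts, which are precursors and not mature microRNAs, the full-length line had 4 higher and 2 lower (15.4% and 7.69%, against 9.41% and 6.14% of all features). Of 2101 features without a locus 198 were higher and 156 lower (9.42% and 7.43%), close to the shares of all features. Their median log2 ratio was 0.00 against 0.01 over all features. The shares of all features are the same for the families that follow. Of 51 UDP-glycosyltransferases, which attach sugars to hormones and secondary metabolites, 12 were higher and 4 lower, and without replicate 1 these counts were 6 and 0. Of 20 U-box ubiquitin ligases 4 were lower and 0 higher, and the lower count was 1 without replicate 1 and 0 without replicate 2.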
